A study of Mus musculus with 26 samples.

Results

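Solute carriers are membrane proteins that move nutrients, ions, metals, nucleotides and lipids across the plasma membrane and the membranes of organelles. The genes were taken as the entries of the E14 expression table whose Ensembl ID belongs to a GRCm38 protein-coding gene with a symbol of Slc followed by a digit. This gave 52 genes of the 2189 listed, out of 371 Slc genes in the GENCODE annotation. The cells were E14 mouse embryonic stem cells (mESCs), grown without feeder cells. One state was kept in leukemia inhibitory factor (LIF) and is called mESC+. In the other, mESC-, LIF was withdrawn and 1 µM retinoic acid (RA), which starts differentiation, was present for the 4 h before harvest. RNA-seq covered 3 libraries per state, Omni-ATAC-seq of open chromatin 1 library per state, and the enhancer predictor CRUP used 3 histone marks and an input, 4 ChIP-seq libraries per state. No genetic change separated the states, and all libraries came from the same line.

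Solute carriers are grouped into numbered families by sequence, and members of a family often share a class of substrate. Many work as coupled transporters, which use the sodium, proton or anion gradient across a membrane, or as facilitators, which let a substrate run down its own gradient. Dividing stem cells are known for a high demand for glucose, amino acids and nucleosides, and the heteromeric amino acid transporters pair a light subunit such as Slc7a5 with the heavy subunit Slc3a2. RA acts through nuclear receptors that bind direct repeats of a short DNA element.

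The expression table gives no value per library, so the RNA level below is the authors' mean normalized count over all 6 libraries, divided by the length of a gene's merged exons in kb. It is the same number for both states and shows no direction of change. Every gene in the table has an adjusted p-value under 0.1 in the authors' own comparison of the states, so being listed already depends on that comparison, of which nothing but this bound was used. In bulk RNA, fewer cells of a type and less RNA per cell cannot be told apart. The ATAC-seq peak lists held 163484 peaks in mESC+ and 141465 in mESC-. Of these, 26.1% and 14.1% overlapped no peak of the other list. Of 10 pluripotency genes, 9 had a peak at the gene start in each list, and the 4 that are listed reached 9813 counts per kb (Zfp42). Such peaks were not particular to these genes. They were also present in each list at 2 of 4 primitive endoderm and 2 of 4 fibroblast genes. The 2 mesoderm genes had one in mESC+ and 1 of them in mESC-, and neither is listed. None of the 2 listed endoderm genes exceeded 22.4 counts per kb, and Thy1, the listed fibroblast gene, was at 42.0.

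The listed genes came from 28 of 49 annotated families. As a share, 14.02% of all Slc genes were listed, compared with 9.04% of the 21938 protein-coding genes. ATP-binding cassette transporters had a share close to this (7 of 50 genes), and 3 of 16 ion-pumping ATPases and 2 of 14 Slco genes were listed. Among substrate classes, nucleoside transporters had 4 of 7 genes listed and transporters of vitamins and cofactors 5 of 19. Amino acid transporters contributed the largest number, 12 of 70. They were followed by inorganic ions (9 of 64), organic ions (6 of 49), metals (5 of 32), sugars (4 of 34), mitochondrial carriers (3 of 47) and nucleotide sugars (3 of 27). Lipid transporters had 1 of 6, Slc27a2. No gene was listed of family 22, the organic cation and anion transporters (25 genes), of the 14 genes of family 16, the monocarboxylate transporters, or of families 1, 3, 5 and 26. One entry, Slc9a3r1, carries the symbol of a carrier family but encodes a scaffold protein that binds sodium/proton exchangers, and it stays in the counts because the selection goes by symbol.

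The RNA levels of the 52 genes spanned from 2.61 to 3639 counts per kb, with a median of 167.5, close to the 143 counts per kb over all listed protein-coding genes. The glucose facilitators Slc2a3 (3639 counts per kb) and Slc2a1 (3093) were the highest. Next came the amino acid transporters Slc38a4 (2841), a sodium-coupled carrier of neutral and cationic amino acids, Slc7a3 (2089), a carrier of arginine and lysine, and Slc7a5 (1991), which takes up leucine and other large neutral amino acids. The other genes among the 10 above 1000 counts per kb were Slc29a1 (1332) and Slc28a1 (1133), an equilibrative and a sodium-coupled nucleoside transporter, the phosphate transporter Slc20a1 (1248), the family 35 member Slc35f2 (1297), and the scaffold gene Slc9a3r1 (1349). At the other end, 11 genes stayed under 50 counts per kb. The lowest were the nucleoside transporter Slc28a3 (2.61), the zinc importer Slc39a2 (3.51), the family 4 member Slc4a9 (3.86), the amino acid transporter Slc38a8 (5.22) and the sugar-phosphate exchanger Slc37a2 (7.06).

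**Figure D1:**
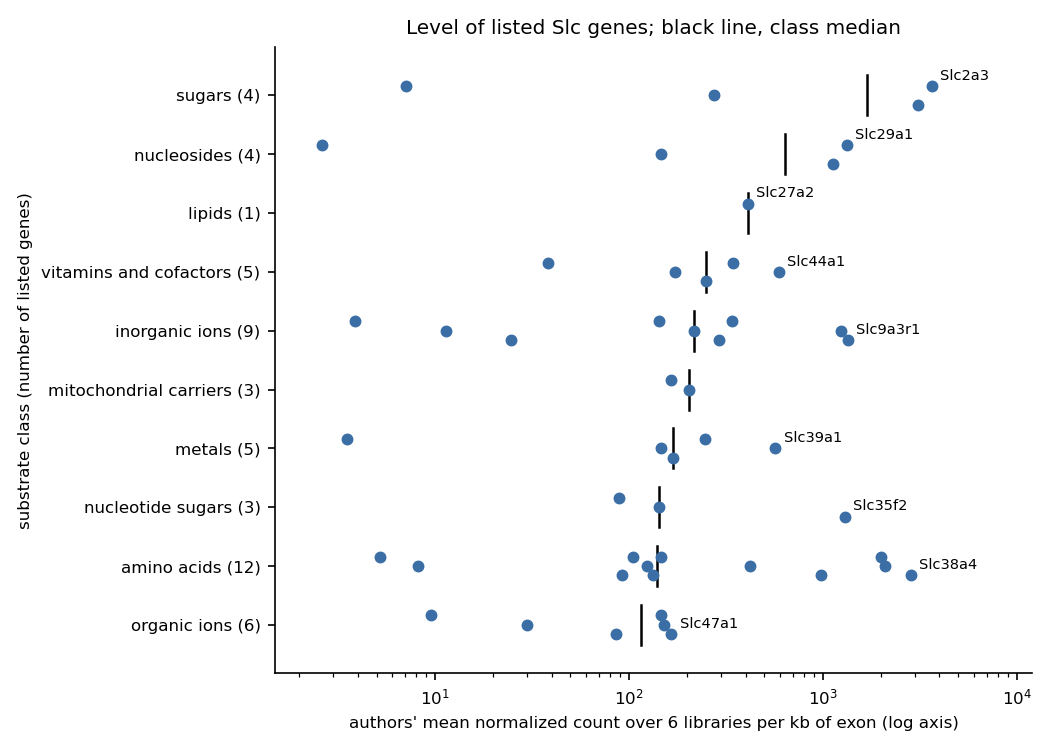
Level of the listed Slc genes on a log axis, as the authors' mean normalized count per kb of exon, by substrate class, with the class median as a black line and the highest gene named (1 gene is not shown). Sugar transporters reach from 7.06 to 3639 counts per kb, whereas the highest organic ion transporter, Slc47a1, is at 165.

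Levels within a class were spread widely. Sugar transporters had the highest median (1684 counts per kb), but Slc45a4, a putative sugar transporter, was at 274 and Slc37a2 at 7.06. Nucleoside transporters held 2 genes above 1000 counts per kb, the lysosomal Slc29a3 at 146, and the lowest gene of all. The medians of the other classes with several genes ran from 116 for organic ions to 251 for vitamins and cofactors. Of the mitochondrial carriers, Slc25a40 was at 164 and the carnitine-acylcarnitine carrier Slc25a20 at 204. The highest genes of other classes were Slc44a1, a choline transporter (594), the zinc importer Slc39a1 (570), and Slc47a1, which extrudes organic cations (165). Since only a mean over the libraries is given, neighbours in this order cannot be set against their spread.

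Slc27a2 encodes a fatty acid transport protein that also activates very long chain fatty acids. It lies on chromosome 2 from 126552407 to 126588243, on the plus strand. Its level of 411 counts per kb (mean normalized count 1543) placed it at rank 15 of the 52 genes, above the median of each other class but sugars and nucleosides. It was the only listed gene of family 27. Of the other 5, Slc27a3, Slc27a4 and Slc27a6 had a promoter peak in both ATAC-seq lists, and Slc27a1 and Slc27a5 in neither.

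To compare the promoters, the strongest ATAC-seq peak that reached within 500 bp of each gene's 5′ end was taken from each list. It was ranked by fold enrichment over background among all peaks of its own list, as a percentile. The peaks of the lists were not matched by position, so they can be different sites. Each state has 1 library, so no difference between the states below has a replicate check or a test, and the read depth behind the peaks is unknown. A promoter peak was present for 46 of the 52 genes in mESC+ (88.5%) and 47 in mESC- (90.4%). Over all protein-coding genes the shares were 64.7% and 63.5%, over listed ones 85.7% and 84.0%, and over Slc genes not listed 72.4% and 69.9%. No listed Slc gene had its promoter peak in mESC+ only, against a background of 2.05% of all and 3.12% of listed protein-coding genes. One, Slc29a1, had it in mESC- only, against 0.880% and 1.41%. That peak was weak, with a fold enrichment of 3.52 and a percentile of 2.22, and when all annotated starts of Slc29a1 were used both lists held a peak, at a fold enrichment of 7.23 in mESC+ and 5.38 in mESC- (percentiles 56.0 and 32.7).

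Both lists lacked a promoter peak for 5 genes. These were Slc7a3, Slc28a1, Slc38a8, Slc4a9 and Slc38a3, a glutamine transporter. Of these, Slc7a3 and Slc28a1 were among the 10 genes of highest RNA level, and the other 3 were under 10 counts per kb. With any annotated transcript start in place of the 5′ end, only Slc28a1 still lacked a peak in both lists. Across the 52 genes, the RNA level and the promoter percentile were nearly unrelated (Spearman's rho of 0.14 in mESC+ and 0.11 in mESC-, across genes). The genes share the same libraries and are not independent replicates. A gene without a promoter peak entered with a percentile of 0, among them the strongly expressed Slc7a3 and Slc28a1, so rho depends in part on the start used. The promoter percentiles of the lists themselves ran closely together (rho of 0.87 over the 46 genes with both peaks, across genes).

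**Figure D2:**
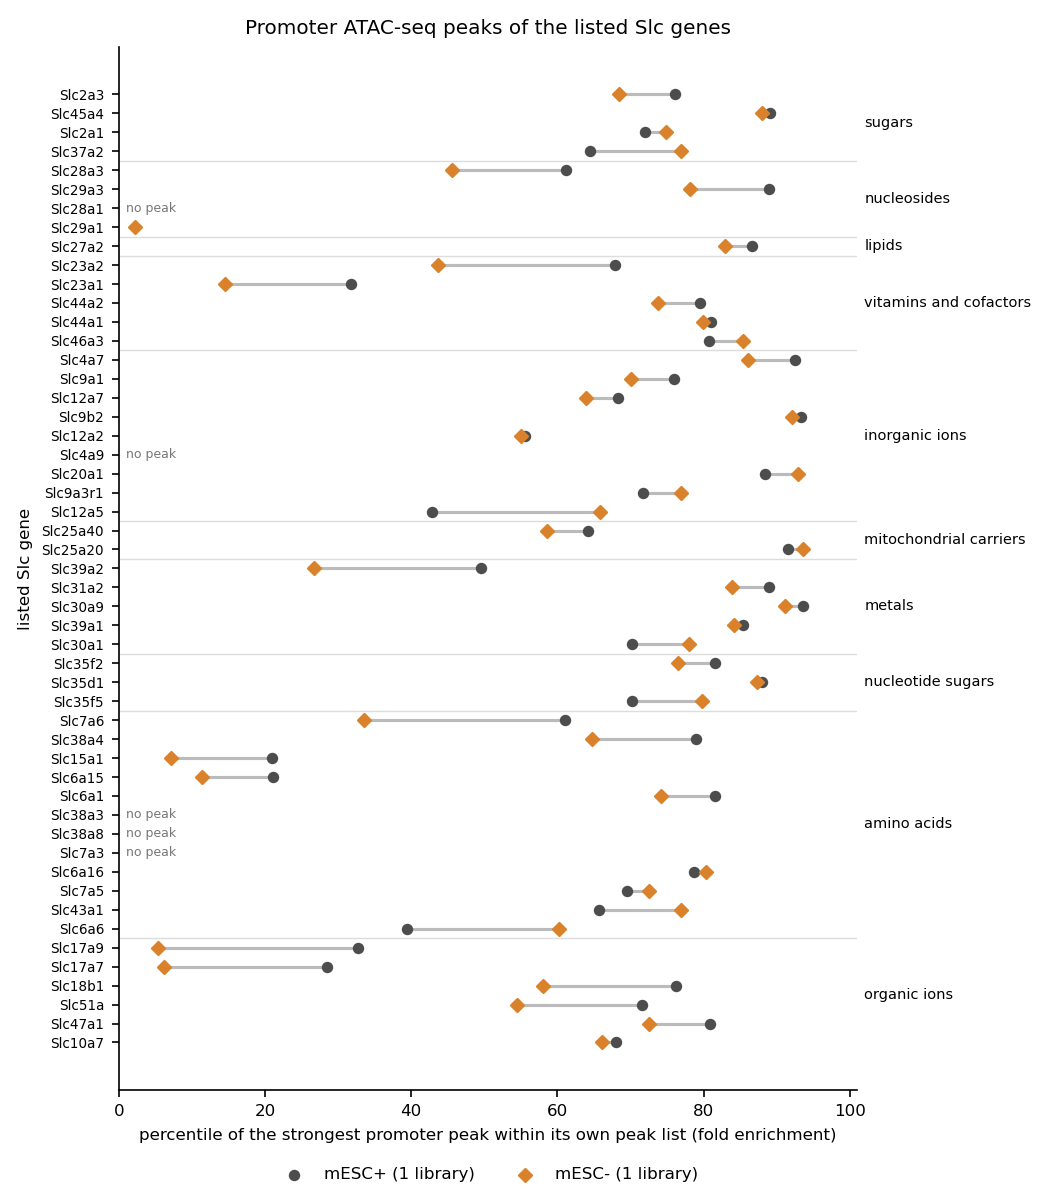
Percentile of the strongest promoter peak of the listed Slc genes (1 is not shown) within the mESC+ list (grey circles) and the mESC- list (orange diamonds), 1 library each, by substrate class. All 6 organic ion transporters have the lower percentile in mESC-, whereas Slc12a5 and Slc6a6 lie over 20 points higher there at the 5′ end of the gene, but 5.29 and 4.34 points higher with any annotated start.

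Most promoters kept a similar rank. Of the 46 genes with both peaks, 30 differed by less than 10 percentile points, and the difference of mESC- less mESC+ reached -27.6 points. A difference of at least 20 points was used as a call. By this rule, 5 Slc genes ranked higher in mESC+, against a background of 4.52% of all and 7.51% of listed protein-coding genes, and 2 ranked higher in mESC-, against 1.84% and 2.57%. In the listed Slc genes these are 9.62% and 3.85%. Genes without a peak in either list cannot be called. They were 9.62% of the listed Slc genes, 12.9% of listed and 34.5% of all protein-coding genes, so the shares are not like for like.

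The difference was largest for Slc7a6, a light subunit that exchanges cationic for neutral amino acids. Its promoter peak had a fold enrichment of 7.76 in mESC+ and 5.45 in mESC-, or percentiles of 61.1 and 33.5. Slc17a9, the vesicular nucleotide transporter, went from 5.48 to 3.88 (percentiles 32.8 and 5.36), and Slc17a7, a vesicular glutamate transporter of the same family, from 5.05 to 3.96 (28.5 and 6.14). Both family 17 promoters were thus among the weakest peaks of the mESC- list by fold enrichment. Ranked by -log10 p, they were at mESC- percentiles of 10.5 (Slc17a9) and 25.2 (Slc17a7). The ascorbate transporter Slc23a2 had a fold enrichment of 8.45 in mESC+ and 6.07 in mESC- (67.8 and 43.7). These are different sites, since its mESC+ peak (132145009 to 132145511) does not overlap its mESC- peak (132144351 to 132144808). Slc39a2 had a fold enrichment of 6.62 and 5.23 (49.6 and 26.7). The call of Slc39a2 was lost by -log10 p (-17.0 points) and with any annotated start (-13.1), whereas those of Slc7a6, Slc17a9, Slc17a7 and Slc23a2 held under both. Just inside and just outside the call lay Slc17a7 at -22.4 points and Slc18b1, a vesicular polyamine transporter, at -18.2 points. The difference of Slc18b1 shrank to -1.66 points with any annotated start.

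In the other direction, the promoter peak of Slc12a5, a potassium-chloride cotransporter known from neurons, had a fold enrichment of 6.14 in mESC+ and 8.14 in mESC- (percentiles 42.8 and 65.8). That of Slc6a6, the taurine transporter, had 5.74 and 7.53 (39.4 and 60.2). Both calls were lost when peaks were ranked by -log10 p, with differences of 15.9 and 13.3 points, and when any annotated start was used, with 5.29 points for Slc12a5 and 4.34 for Slc6a6. A weaker peak of Slc12a5, with its summit 32 bp from the gene start, was in the mESC+ list only (fold enrichment 4.22, percentile 10.9). Slc12a5 was a low gene at 11.3 counts per kb, whereas Slc6a6 was at 981. The next in order, Slc37a2 (12.4 points), the neutral amino acid transporter Slc43a1 (11.3) and the family 35 member Slc35f5 (9.68), stayed below the call. For Slc27a2, the promoter peak was strong in both states, with a fold enrichment of 12.3 in mESC+ and 10.8 in mESC-, percentiles 86.6 and 82.9, a difference of -3.67 points.

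At the 5′ end and by fold enrichment, none of the 10 genes of highest RNA level reached the call, but Slc7a3 and Slc28a1 had no peak there, and Slc29a1 differed by -23.3 points with any annotated start. The peak of Slc2a3 had a fold enrichment of 9.87 in mESC+ and 8.32 in mESC- (percentiles 76.2 and 68.4). With any annotated start this turned to 12.4 and 14.3 (87.2 and 94.04). The peak of Slc2a1 had a fold enrichment of 9.09 and 9.40 (71.97 and 74.9). Slc7a5 had 8.83 and 8.90 (69.6 and 72.6), and its heavy subunit partner Slc3a2, which is not listed, 5.18 and 5.63 (29.8 and 35.3). Of these strongly expressed genes, Slc38a4 differed most, with 10.4 and 7.95 (78.9 and 64.7).

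By class, the organic ion transporters stood at the low end, with 6 of 6 genes ranked lower in mESC- (5 of 6 when ranked by -log10 p) and a median difference of -17.7 points. Besides both family 17 genes these were Slc18b1, the bile acid and steroid exporter subunit Slc51a (-17.1 points), Slc47a1 (-8.30) and Slc10a7 (-1.95). Both nucleoside transporters with peaks in each list also ranked lower, Slc28a3 (-15.6 points) and Slc29a3 (-10.8). Of the transporters of vitamins and cofactors, 4 of 5 ranked lower, among them the ascorbate transporters Slc23a2 and Slc23a1 (-17.2). Metal transporters showed 4 of 5 lower, but with a median of only -2.49 points. Amino acid transporters were mixed, with 5 lower and 4 higher, and sugar transporters were split at 2 and 2 (1 lower and 3 higher with any annotated start). Mitochondrial carriers had 2 of 3 higher.

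**Figure D3:**
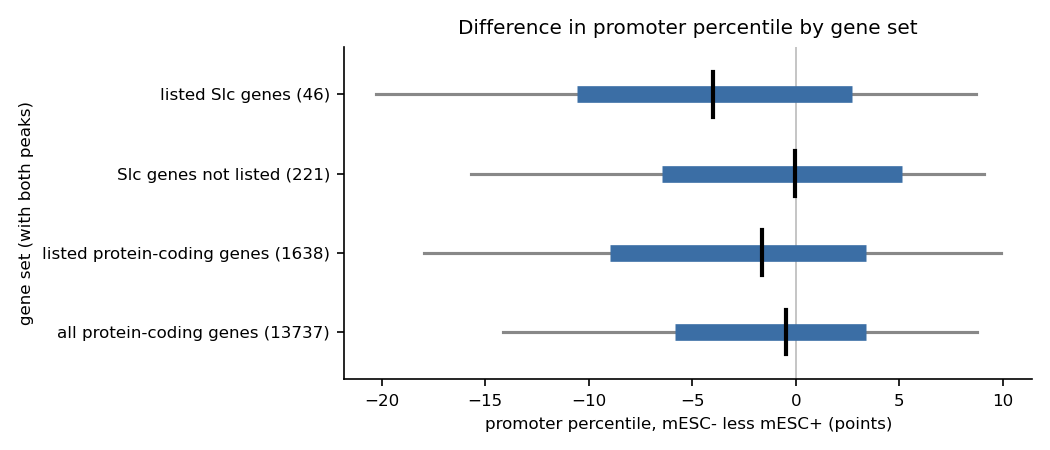
Promoter percentile in mESC- less that in mESC+ for genes with a peak in both lists, with the median (black), the middle 50% (blue) and the 10th to 90th percentile of genes (grey line). The median is -3.99 points for the listed Slc genes, -0.05 for Slc genes not listed, -1.62 for listed and -0.47 for all protein-coding genes.

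Over all 46 genes, 32 ranked lower in mESC- (69.6%) and the median difference was -3.99 points. Slc genes not listed had a median of -0.05 points with 50.7% lower, listed protein-coding genes -1.62 points with 58.4%, and all protein-coding genes -0.47 points with 54.1%. Ranking by -log10 p gave 33 of 46 lower. The direction depended on the length of the lists, however. When each list was reduced to its 100000 strongest peaks, 40 Slc genes kept a promoter peak in both, 19 ranked lower and 21 higher in mESC-, and the median difference was 0.85 points. Calls of at least 20 points then turned to 5 higher in mESC- and 3 higher in mESC+. No share over other protein-coding genes is given at this list length, so these counts and the turn in direction cannot be set against a background. The 5 were Slc12a5, Slc6a6, Slc37a2, Slc43a1 and Slc35f5, and the 3 were Slc7a6 (-30.4 points), Slc23a2 (-26.99) and Slc18b1 (-20.6). The peaks of Slc17a9 and Slc17a7 were too weak to be among the 100000 strongest of either list, and that of Slc39a2 was among them in mESC+ only. Among the organic ion transporters 3 of 4 still ranked lower, Slc10a7 being the exception at 4.29 points, and both nucleoside transporters did. Amino acid transporters then had 3 lower and 4 higher, metal transporters and those of vitamins and cofactors 2 and 2 each. Slc27a2 kept its small difference, at -2.24 points.

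The promoter sequences were read from RefSeq (GRCm38.p6), from 250 bases before to 50 after the start, and 37 of the 52 genes had one. The RefSeq start lies 30566 bp from the GENCODE gene start for Slc12a7, 23867 bp for Slc31a2, 16505 bp for Slc4a7 and 1473 bp for Slc43a1. The sequences of these genes are thus not those at the ranked promoter peaks. Those of Slc39a2 (start 721 bp away) and Slc12a5 overlap no ranked peak either. Those of Slc15a1, Slc18b1, Slc23a2 and Slc37a2 overlap the ranked mESC+ peak but not the mESC- one. All of them stay in the shares below. The median GC content of the 37 sequences was 63.7%, with 19 CpG dinucleotides per 300 bases, compared with 52.7% and 7 over all 32851 promoters. The GC box GGGCGG was found on either strand in 75.7% of them (35.7% of all promoters) and the TATA box TATAAA in 10.8% (13.6%). No listed Slc promoter held a direct repeat of the nuclear receptor elements AGGTCA and AGTTCA, or of their variants that begin with GG (GGGTCA together with the form GGTTCA), spaced by 1, 2 or 5 bases, which 0.222%, 0.268% and 0.0974% of all promoters do. Slc27a2 and Slc7a6 are shown because they are the fatty acid transporter with a strong promoter peak in both states and the gene with the largest difference. Both are on the plus strand, and capitals mark the bases from the RefSeq start onward.
Slc27a2, chr2:126552774-126553073: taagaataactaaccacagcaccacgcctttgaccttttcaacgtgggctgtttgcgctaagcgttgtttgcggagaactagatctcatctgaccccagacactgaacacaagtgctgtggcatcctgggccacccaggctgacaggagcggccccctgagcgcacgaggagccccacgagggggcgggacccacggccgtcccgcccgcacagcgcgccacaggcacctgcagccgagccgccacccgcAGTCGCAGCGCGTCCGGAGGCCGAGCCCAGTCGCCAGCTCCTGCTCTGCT
Slc7a6, chr8:106168604-106168903: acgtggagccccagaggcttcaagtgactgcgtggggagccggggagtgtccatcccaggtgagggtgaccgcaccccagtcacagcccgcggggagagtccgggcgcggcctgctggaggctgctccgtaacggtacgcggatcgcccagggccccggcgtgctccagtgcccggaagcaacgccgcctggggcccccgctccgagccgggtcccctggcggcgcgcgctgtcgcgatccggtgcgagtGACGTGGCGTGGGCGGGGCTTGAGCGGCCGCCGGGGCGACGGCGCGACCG
The Slc27a2 window held 2 GC boxes at 65.3% GC and lay inside the promoter peak of either list, which ran from 126552420 to 126553548 in mESC+ and from 126552486 to 126553589 in mESC-. Its RefSeq start lies 617 bp from the GENCODE gene start. The Slc7a6 window held 1 GC box at 75.7% GC. Its peak was narrow in mESC+, from 106168709 to 106168924, and wider in mESC-, from 106168367 to 106168952, although the fold enrichment was lower there.

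The whole bodies of the 52 genes held 382 peaks in mESC+ and 318 in mESC-, or 17.0 and 14.1 peaks per 100 kb of gene. Promoter peaks that overlap a gene body are included in these counts. The density over all protein-coding genes was 8.51 and 7.41, and over listed ones 12.8 and 11.1. The contrast in density therefore also holds the difference in promoter peaks given above. Of the mESC+ peaks, 93 (24.3%) overlapped no mESC- peak, close to the background of 25.0% over gene bodies of all protein-coding genes. Of the mESC- peaks, 30 (9.43%) overlapped no mESC+ peak, below the 13.4% of all gene bodies. The promoter peak of Slc29a1 is among them. At least 1 peak of the first kind was found in 40 genes (76.9%), against 43.6% of all and 68.5% of listed protein-coding genes. One of the second kind was found in 16 (30.8%), against 28.3% and 47.5%, and 8 genes had neither. Slc10a7, a member of the bile salt family with a gene body of 225 kb, carried the most peaks (42 in mESC+ and 40 in mESC-), 9 and 8 of them in 1 list only. Slc6a6 had 19 peaks in mESC+ and 10 in mESC-, and 8 of the former overlapped none of the latter, while its promoter peak was the stronger one in mESC-. Slc44a1 likewise had 8 of 24 peaks in mESC+ only and 1 of 17 in mESC- only.

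**Figure D4:**
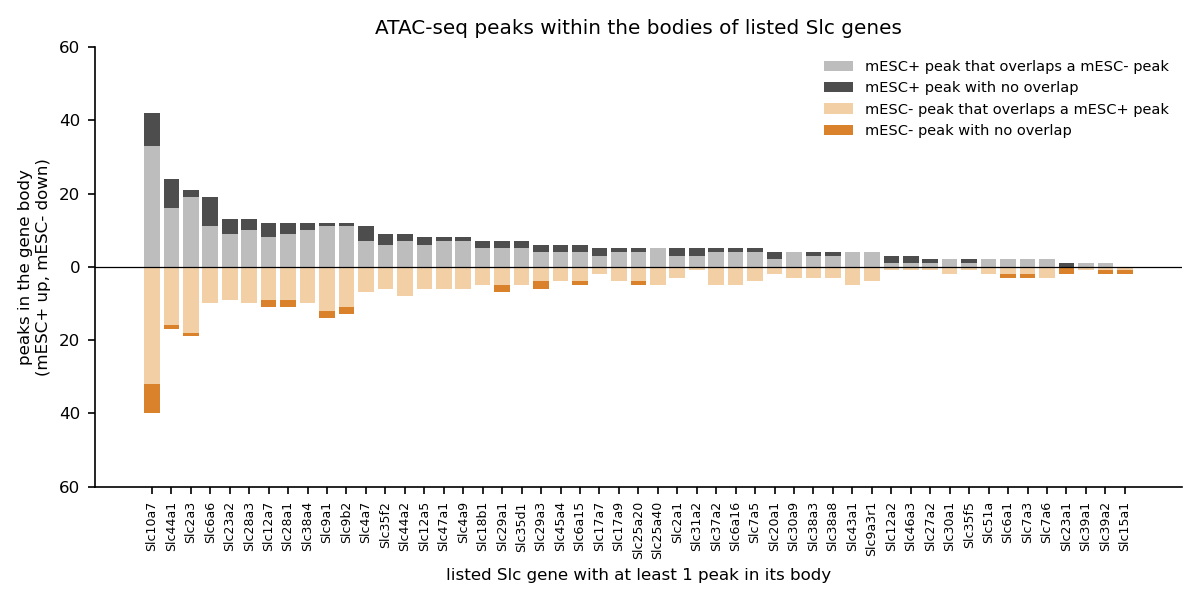
Number of ATAC-seq peaks within the bodies of the listed Slc genes with at least 1 peak (1 gene is not shown), mESC+ upward and mESC- downward, with peaks that overlap none of the other list in dark grey and dark orange. Slc10a7 has 42 and 40 peaks, and Slc6a6 has 8 mESC+ peaks without a counterpart and no such mESC- peak.

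No peak found in 1 list only ranked above percentile 71.8. In mESC+ the strongest lay in introns of Slc6a6 (fold enrichment 9.05), the amino acid transporter Slc6a15 (8.98), Slc27a2 (8.59) and Slc28a3 (8.42). In mESC- they reached only 6.52 in Slc25a20, 5.93 in the peptide transporter Slc15a1, 5.93 in Slc44a1 and 5.50 in Slc29a3. Peaks without a counterpart that also had a -log10 q of 10 or more made up 2.36% of all mESC+ peaks and 0% of all mESC- peaks in these genes. The Slc27a2 peak had its summit at 126586817, which is 34410 bp downstream of the gene start in an intron, with a -log10 q of 12.6. The other mESC+ peak of Slc27a2 was that at its promoter. The 101 bases around the summits of 3 such peaks are shown, chosen after their letters were seen because they share a stretch (GRCm38.p6, plus strand of the chromosome, mESC+ for Slc27a2 and Slc6a6, mESC- for Slc15a1). Capitals mark the stretch of 20 bases common to Slc27a2 and Slc15a1.
Slc27a2, chr2:126586767-126586867: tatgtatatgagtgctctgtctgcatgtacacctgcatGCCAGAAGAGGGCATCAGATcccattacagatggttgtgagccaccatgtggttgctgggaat
Slc15a1, chr14:121467804-121467904: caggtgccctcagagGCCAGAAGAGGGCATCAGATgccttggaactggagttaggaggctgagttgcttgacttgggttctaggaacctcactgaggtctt
Slc6a6, chr6:91732647-91732747: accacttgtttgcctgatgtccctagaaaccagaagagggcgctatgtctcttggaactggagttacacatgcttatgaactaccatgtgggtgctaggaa
The Slc6a6 window has 12 of these bases in a row and no capitals. The genome assembly marks 100% of the Slc27a2 window, 57.4% of the Slc15a1 window and 85.1% of the Slc6a6 window as repeats. The 20 bases were found within the 201 bases around the summit of 0.304% of all mESC+ peaks and 0.260% of all mESC- peaks. Among the peaks in listed Slc genes that were present in 1 list only, windows marked mostly as repeat made up 15 of 93 in mESC+ and 3 of 30 in mESC-, compared with 18.6% and 15.2% of all such peaks. How well reads can be placed in these repeats was not tested. None of the 93 and 30 peaks held a direct repeat spaced by 1, 2 or 5, and 1 of the 93 held the octamer ATGCAAAT, which 1.74% of all peaks found in mESC+ only do. Direct repeats spaced by 1, 2 and 5 occurred in 0.155%, 0.143% and 0.0469% of all peaks found in mESC+ only, and in 0.423%, 1.10% and 1.12% of those found in mESC- only.

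CRUP gives each dynamic enhancer region a probability of being active between 0 and 1 in each state. A gene was counted as near such a region if the region overlapped its body or lay within 100 kb of its start. No listed Slc gene was near any of the 186 regions with the higher probability in mESC+, against a background of 1.78% of all and 3.28% of listed protein-coding genes. Near the 141 regions with the higher probability in mESC- there were 3 (5.77%), against 2.27% and 7.46%. For Slc27a2, the nearest dynamic region was 1759994 bp away, and the median over the 52 genes was 2144840 bp. The strongest mESC- peak of each of the 3 regions is shown with 201 bases around its summit, since these are the candidate regulatory sequences next to Slc genes (GRCm38.p6, plus strand). Capitals mark a direct repeat spaced by 1, the only match to the direct repeats in these windows.
Slc10a7, chr8:78538058-78538258: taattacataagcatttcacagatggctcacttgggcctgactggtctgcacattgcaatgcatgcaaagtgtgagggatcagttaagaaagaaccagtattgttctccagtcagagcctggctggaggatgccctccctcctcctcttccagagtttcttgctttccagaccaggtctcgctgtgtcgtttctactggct
Slc38a8, chr8:119490784-119490984: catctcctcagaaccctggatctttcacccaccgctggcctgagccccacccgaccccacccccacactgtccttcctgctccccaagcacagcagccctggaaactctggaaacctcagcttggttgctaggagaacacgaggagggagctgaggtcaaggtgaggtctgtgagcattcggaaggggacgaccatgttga
Slc44a2, chr9:21261844-21262044: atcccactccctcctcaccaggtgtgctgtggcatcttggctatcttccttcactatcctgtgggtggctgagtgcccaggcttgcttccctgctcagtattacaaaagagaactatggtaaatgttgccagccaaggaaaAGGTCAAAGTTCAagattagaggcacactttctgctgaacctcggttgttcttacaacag
The region at Slc10a7 lies in an intron, on chromosome 8 from 78532601 to 78539100, and went from a probability of 0 in mESC+ to 0.874 in mESC-. The strongest ATAC-seq peak inside ranked lower in mESC-. It had a fold enrichment of 12.1 (percentile 85.9) in mESC+ and 8.13 (65.8) in mESC-. A weaker one had 4.32 (12.1) and 5.32 (27.9), and another 4.42 (13.3) and 3.80 (4.51). A further peak, at 3.68 (3.51), was in the mESC- list only. The region in an intron of Slc38a8, on chromosome 8 from 119487801 to 119491900, went from 0 to 0.95, and its strongest peak had 9.39 (73.2) and 10.4 (80.7). Slc38a8 was among the lowest genes and had no peak at its 5′ end in either list. With any annotated start, its peak had a fold enrichment of 8.85 (69.7) in mESC+ and 6.34 (46.1) in mESC-. The third region, on chromosome 9 from 21261001 to 21264700, went from 0.0088 to 0.872. It is 55998 bp from the start of the choline transporter-like gene Slc44a2 and only 593 bp from that of Atg4d. No mESC+ peak overlapped it, and the only mESC- peak was weak, with a fold enrichment of 4.26 (percentile 11.03). That peak held AGGTCAAAGTTCA, a direct repeat spaced by 1, at 21261985 to 21261997, and such repeats were found in 0.423% of all peaks that, like this one, were in the mESC- list only. A direct repeat spaced by 5, GGGTCAAAGTCAGGTCA, was found in the same region at 21262498 to 21262514, outside any peak.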

How the data were processed

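RNA-seq, ATAC-seq and ChIP-seq were measured in E14 mESCs in LIF (mESC+) or RA (mESC-). The submitters' processing notes name STAR 2.5.1b, BWA, SAMtools, MACS2 and DESeq2, with the builds mm10 and GRCm38. For RNA-seq, the authors deposited a DESeq2 table of 2189 genes, and its mean normalized signal per gene over 6 libraries (3 biological replicates per state) was used. Its fold changes, errors, test statistics and p-values, and the lowest p-value and cluster in the list of dynamic regions, are the authors' own comparisons and were not used, apart from a check that all 2189 adjusted p-values are under 0.1. For each dynamic region the authors computed with CRUP an enhancer probability per state, a fraction from 0 to 1. For each ATAC-seq library, the authors called peaks with MACS2, and the deposited lists give a fold enrichment (ratio) and -log10 p and q values. Read totals were not given in the sources used here, so the depth is unknown.

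Gene positions and exon lengths came from GENCODE M21, promoter sequences and the genome from RefSeq GRCm38.p6. Substrate classes follow the family number. Promoter peaks were those overlapping 500 bp to each side of the gene's 5′ end. Motifs were searched on both strands. Named genes are the highest and lowest 5 by level, the highest of each class, family 27, promoter peaks in 1 list only, the 5 largest rises and falls in percentile, and genes near a dynamic region. Other genes are named for their place in a class. The values of 1 gene are not reported here, though it stays in the counts. No test was possible between states, with 1 ATAC-seq library each. The members, classes and lists were chosen with earlier results of these data known. All 6 checks of the overlap, ranking and motif functions passed on simulated data. The analysis ran in Python 3.11.15 (pysam 0.24.0, matplotlib 3.10.9, pandas 2.3.3, NumPy 2.4.6) and samtools 1.23.1.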

Additional observations from a re-analysis of the deposited data

How the results depend on the processing

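Counts of Slc genes with a promoter peak stayed within 1.5 times the reported ones under all alternatives run. Peaks in mESC+ only were 1 for a 250 bp window, 6 when peaks needed a -log10 q of 10 or more and 1 among the 100000 strongest peaks of each list. Peaks in mESC- only were 0 with any annotated start, 0 under that q limit and 0 among the 100000 strongest. Genes ranked higher in mESC- were 1 by -log10 p (Slc29a1) and 1 with any annotated start (Slc4a9), so Slc12a5 and Slc6a6 were lost in both. Slc29a1 had no mESC+ peak at its 5′ end, so its call set a percentile of 29.1 against 0. Genes ranked higher in mESC- were 5 among the 100000 strongest, 4 at 10 points and 0 at 30 points. Genes ranked higher in mESC+ were 5 by -log10 p, where Slc18b1 replaced Slc39a2, 7 with any annotated start, 3 among the 100000 strongest, 12 at 10 points and 0 at 30 points. The share ranked lower in mESC- turned from 69.6% to 47.5% among the 100000 strongest, where no background share is given, and the cause was not tested. It was 71.7% by -log10 p and 68.6% with any annotated start. For ranks, any annotated start was chosen after seeing the data. Gene-body peaks in 1 list only that also passed the q limit were 2.36% (mESC+) and 0% (mESC-) of all gene-body peaks in these genes. The limit was put on the peaks in 1 list only and not on the total, so these shares could only fall. The median level was 308.7 counts per kb of the longest transcript, which is shorter than the merged exons. No paired analysis was possible because the table gives no values per library, and for the same reason no replicate could be left out. With 1 peak list per state and unknown depth, a difference between libraries and one between states cannot be told apart.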
